A study of Rattus norvegicus with 4 samples.

Results

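Nupr1 and 9 genes of the ATF4 pathway were followed in aged rat tendon stem/progenitor cells (rTSPCs) that had been treated with prim-O-glucosylcimifugin (POG) or with its solvent. The 10 members are Nupr1, Atf3, Atf4, Atf5, Ddit3, Trib3, Chac1, Asns, Cebpb and Ppp1r15a. All 10 were measured, which here means present among the 7235 named genes of the deposited values. Nupr1 was chosen by its own rise in this comparison, where it ranks 7 from the largest increase among all named genes, so its values are given as a description with no test. The 9 others were chosen by pathway membership, with earlier results of these data known. The question put to the arrays was whether the higher Nupr1 signal came with higher signals of the other ATF4 pathway genes.

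Biotinylated cDNA prepared from total RNA was hybridized to 4 Affymetrix Rat Transcriptome Arrays, with 2 arrays in each group. The 18M + POG group received POG at 20 μM in the culture medium, and the 18M + DMSO group received an equal amount of dimethyl sulfoxide (DMSO), the vehicle. All arrays held cells of 18-month-old rats, which the study's methods give as male Sprague-Dawley rats, isolated from Achilles tendons and selected as colonies. The labels also name passage 12 for the treatment. The study describes treatment to passage 12 for serially passaged cells of young rats, and a course of days for cells of aged rats. The length of treatment behind these arrays is therefore not settled. The titles of the DMSO arrays name both agents, so groups follow the treatment entries and every direction is given as the arrays are labelled. The labels call the arrays biological replicates without saying whether each came from a separate rat, and each p-value therefore covers array-to-array spread, which may be technical. Signals are log2 values after robust multichip analysis (RMA), in which a difference of 1 is a doubling. The array medians lay between 8.55 and 8.68, and the correlation over all features was 0.994 and 0.995 within a group against 0.962 to 0.965 between groups. Of the 16 tendon and mesenchymal markers, 13 were measured, and with POG 5 of them passed the test as higher and 3 as lower. Col1a1 stood at 19.08 to 19.41 and Thy1 at 16.03 to 16.56 on the 4 arrays, and the tendon transcription factor Scx at 5.48 to 6.09. Tnmd and Mkx were not analysed here. Of 9 leukocyte markers 3 were measured, with a summed log2 signal of 18.8 to 19.2 with DMSO and 19.0 to 19.1 with POG, and Lyz2 and Cd14 among them stood at 5.18 to 5.27 and at 8.46 to 8.83.

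The integrated stress response is the pathway by which cells slow general translation under stress. Sensor kinases phosphorylate the translation initiation factor eIF2, global protein synthesis falls, and the mRNA of the transcription factor ATF4 is translated more efficiently because of short upstream reading frames in its leader. ATF4, often with C/EBP partners, then binds composite sites in its target genes and switches on amino acid supply, redox defence and further stress factors, including CHOP, the product of Ddit3. NUPR1, a small disordered chromatin protein that many stresses induce, is itself known as an ATF4 target. Because much of the pathway is set by phosphorylation and translation, mRNA levels on an array show its transcriptional arm only.

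The promoters show which members carry the letters of a composite ATF4 site near their annotated start. RefSeq promoter windows on the GRCr8 build, from 250 bases before the start site to 50 bases from it on, were found for 9 of the 10 members. Atf3 was not in the table. The core of the C/EBP-ATF response element (CARE), written TGATGNAA and searched on both strands, occurred in 3 of these 9 windows, those of Nupr1, Trib3 and Chac1, in 3.98% of 33469 windows of the same length and in 2.06% of the 6073 windows of named genes. The whole Nupr1 window (chr1:190645852-190646151, minus strand) is shown because this gene had the largest change of the members. Its capitals mark an E-box, CACGTG, at positions -170 to -165 and the CARE core on the opposite strand at positions -55 to -48, counted with the start site as position 1.
Nupr1: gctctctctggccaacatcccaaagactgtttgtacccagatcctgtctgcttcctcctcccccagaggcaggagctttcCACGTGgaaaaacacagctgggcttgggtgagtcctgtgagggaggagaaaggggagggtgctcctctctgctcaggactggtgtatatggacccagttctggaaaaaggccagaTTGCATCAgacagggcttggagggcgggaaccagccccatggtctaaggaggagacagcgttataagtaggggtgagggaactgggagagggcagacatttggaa

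The 60-base stretches around the CARE core, in capitals, of Trib3 (chr3:161275521-161275580, minus strand) and Chac1 (chr3:126795938-126795997, plus strand) are shown to set them against Nupr1, and the stretch of Ppp1r15a (chr1:105139629-105139688, minus strand) shows the cyclic AMP response element (CRE), TGACGTCA, in capitals.
Nupr1: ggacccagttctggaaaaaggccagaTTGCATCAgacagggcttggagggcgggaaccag
Chac1: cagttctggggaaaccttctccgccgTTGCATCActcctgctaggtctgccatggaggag
Trib3: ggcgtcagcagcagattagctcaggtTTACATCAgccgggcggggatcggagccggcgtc
Ppp1r15a: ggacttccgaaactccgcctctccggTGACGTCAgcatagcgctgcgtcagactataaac

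In these stretches Nupr1 and Chac1 carry the same 8 letters, TTGCATCA, as read on the strand of the gene, and Trib3 carries TTACATCA. The CRE was in 1 of the 9 windows, in 1.83% of all windows and in 3.28% of those of named genes. The E-box was in 2 of 9, Nupr1 and Atf4, in 6.42% of all windows and in 9.2% of those of named genes. No motif match overlapped another in these windows. A match is a description of letters and not a measured site, and a window without a match says only that these letters are not in it.

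Nupr1, Atf4 and Atf5 were higher in the arrays labelled 18M + POG. These signs rest on the group labels and would all turn if the labels of the groups were exchanged. Set beside the protein readouts the study gives for POG-treated aged rTSPCs, cell division genes ran the opposite way from Ki67. Among autophagy genes, Sqstm1 also ran the opposite way from its protein p62. Map1lc3b was higher, where the study reports a higher level of the LC3-II form. That readout is not the total LC3 protein, so the direction of Map1lc3b cannot be set against it directly. The study also reports more TNC and FMOD protein after tenogenic induction, a state that the labels of these arrays do not name. On the log2 scale Tnc was lower at -1.63, and Fmod did not pass at 0.34. Which labelling holds was not tested, mRNA and protein are different measures, and the lengths of treatment may differ. Nupr1 had signals of 10.68 and 10.72 on the DMSO arrays and 13.95 and 13.92 on the POG arrays. Both POG arrays thus stood 3.20 or more above both DMSO arrays, while arrays of one group differed by 0.04 or less. The means were 10.70 ± 0.028 (SD, n = 2) and 13.94 ± 0.021 (SD, n = 2), a log2 difference of 3.24 or 9.42-fold. Atf4, the central transcription factor, had signals of 15.28 and 15.15 with DMSO and of 15.73 and 15.92 with POG. Its groups did not overlap, and its log2 fold change was 0.61 (standard error, SE, 0.20, limma adjusted p = 0.0249), or 1.53-fold. This call was lost with any 1 of the 4 arrays left out, where the adjusted p reached up to 0.161. Atf5, a related transcription factor whose mRNA is also under translational control by upstream reading frames, had signals of 10.54 and 10.74 with DMSO and 11.88 and 11.95 with POG. It rose by a log2 fold change of 1.28 (SE 0.20, limma adjusted p = 0.000156), and both POG arrays lay at least 1.14 above both DMSO arrays.

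**Figure D1:**
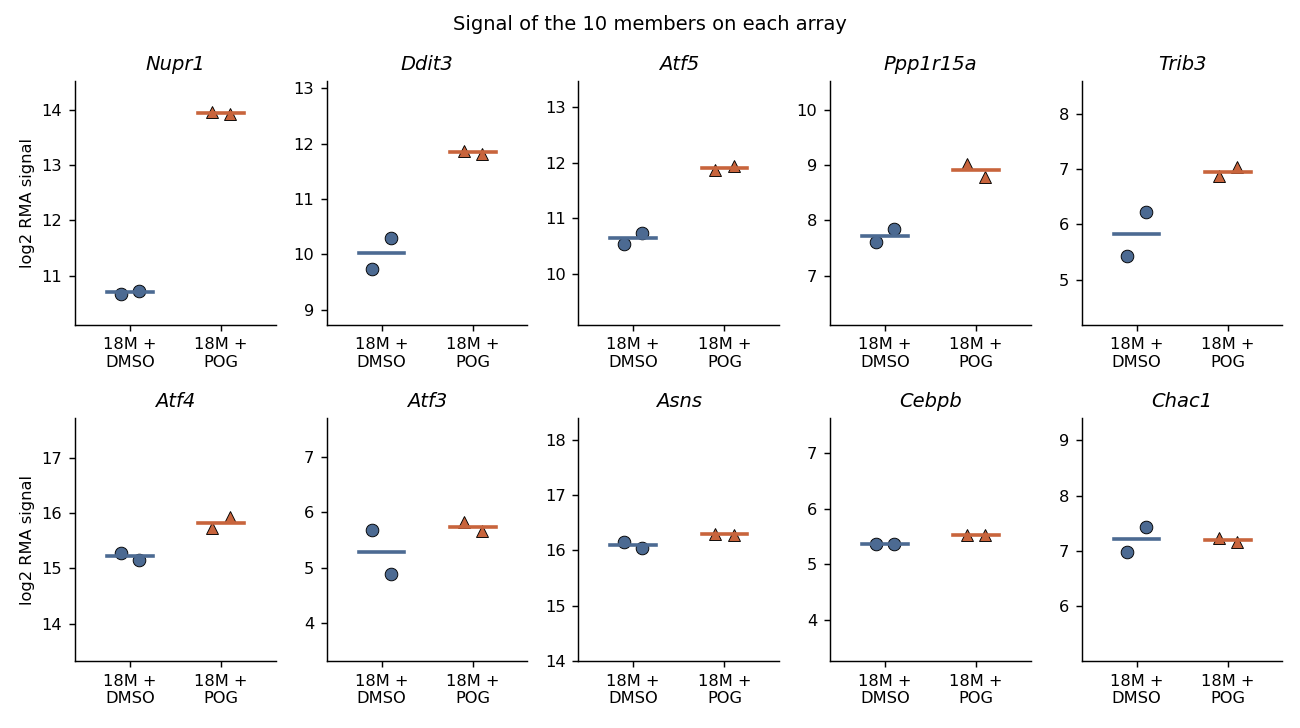
Log2 RMA signal of each member on the 4 arrays, with circles for 18M + DMSO, triangles for 18M + POG and bars for the mean of 2 arrays. Each panel spans the same number of log2 units, so distances compare between panels while heights do not; Nupr1 moves from 10.70 to 13.94, and the groups overlap only for Atf3 and Chac1.

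Ddit3 changed most among the 9 other members. CHOP, which it encodes, is a C/EBP-related factor that accompanies prolonged stress. Its signals were 9.74 and 10.30 on the DMSO arrays and 11.87 and 11.81 on the POG arrays. The DMSO arrays lay apart from each other by 0.56, more than in most genes, and the lowest POG array still stood 1.51 above the higher DMSO array. The log2 fold change was 1.82 (SE 0.22, limma adjusted p = 1.7e-05), or 3.53-fold, and it stayed between 1.54 and 2.10 with any array left out. Atf3, which encodes a stress-induced factor that often acts as a repressor, did not pass the test. Its signals were 5.68 and 4.88 with DMSO and 5.82 and 5.66 with POG, so the groups overlapped. The log2 difference of 0.46 had a 95% interval of -0.07 to 0.99 (limma adjusted p = 0.155), and it ran from 0.06 without DMSO replicate 2 to 0.86 without DMSO replicate 1.

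Ppp1r15a and Trib3, whose products restrain the response, were higher in the arrays labelled 18M + POG. Ppp1r15a encodes GADD34, which directs a phosphatase to eIF2 and so ends the response. Its signals were 7.60 and 7.85 with DMSO and 9.02 and 8.79 with POG, with no overlap. It rose by a log2 fold change of 1.18 (SE 0.20, limma adjusted p = 0.000393), or 2.27-fold. Trib3 encodes a pseudokinase that restrains ATF4 and CHOP. It had signals of 5.43 and 6.23 with DMSO and 6.87 and 7.03 with POG, a log2 fold change of 1.12 (SE 0.24, limma adjusted p = 0.00264). The DMSO arrays differed by 0.80, as much as for Atf3, and the call was lost without DMSO replicate 1, where the change was 0.72, and without either POG array.

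The remaining members, 2 enzymes and a C/EBP factor, did not pass the test. Asns encodes asparagine synthetase, a classical ATF4 target of amino acid shortage. It had signals of 16.16 and 16.04 with DMSO and 16.30 and 16.28 with POG, a log2 difference of 0.19 with a 95% interval of -0.22 to 0.60 (limma adjusted p = 0.459). Chac1, which encodes a glutathione-degrading enzyme, had signals of 6.98 and 7.44 with DMSO and 7.23 and 7.17 with POG, and both POG arrays fell between the DMSO arrays. Its log2 difference was -0.01, with an interval of -0.46 to 0.44. Cebpb, the gene of the ATF4 partner C/EBPβ, stood at 5.37 and 5.36 with DMSO and 5.52 and 5.53 with POG, a log2 difference of 0.16 (interval -0.25 to 0.57, limma adjusted p = 0.538). The upper ends of the intervals of Asns, Cebpb and Chac1 lie below the lower ends of those of Atf5, Ddit3 and Ppp1r15a, but the differences between members were not tested themselves. Chac1 and Nupr1 share the CARE letters shown above and differed in signal change by the widest margin of any member against Nupr1.

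**Figure D2:**
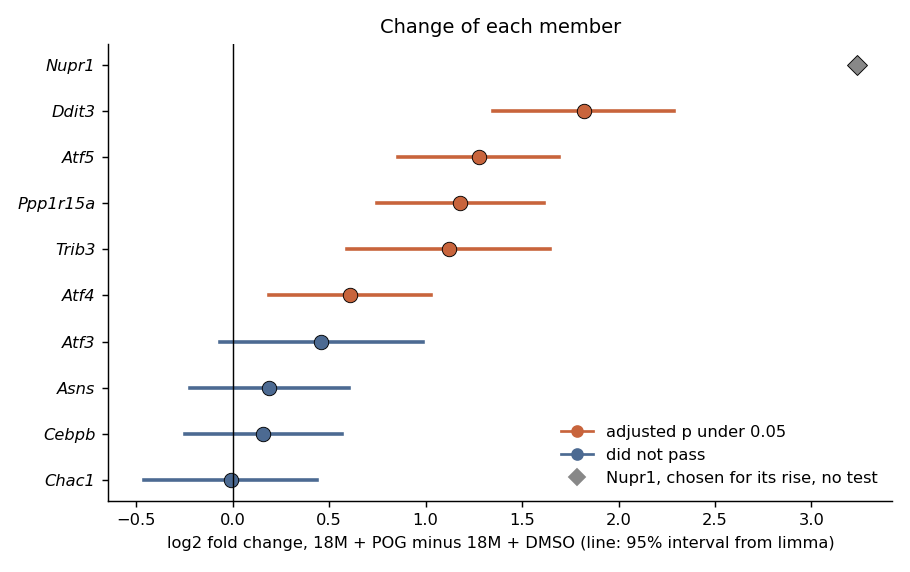
Log2 fold change of each member, 18M + POG minus 18M + DMSO, with lines for the 95% interval from limma; Nupr1 has no interval because it was chosen for its rise. The intervals of Ddit3, Atf5, Ppp1r15a, Trib3 and Atf4 lie above 0, and those of Atf3, Asns, Cebpb and Chac1 include it.

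Of the 9 members other than Nupr1, limma called 5 higher and 0 lower after adjustment (threshold 0.05), where 20.4% of all named genes were higher and 17.2% lower. Without adjustment limma also gave 5 and 0, and the methods' t-test, unadjusted and with its fold limit, gave 4 and 0. Both POG arrays lay above both DMSO arrays in 7 of the 9 members and in 37.2% of all named genes, and below them in 0 of the 9 and in 32.7% of all named genes. The median log2 difference of the 9 was 0.61, beside 0.04 over all named genes. Without DMSO replicate 1, POG replicate 1 or POG replicate 2, 3 of the 9 were called, and these were Atf5, Ddit3 and Ppp1r15a each time. With 2 arrays against 2, an exact permutation test of a single gene cannot give a two-sided p under 0.333.

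**Figure D3:**
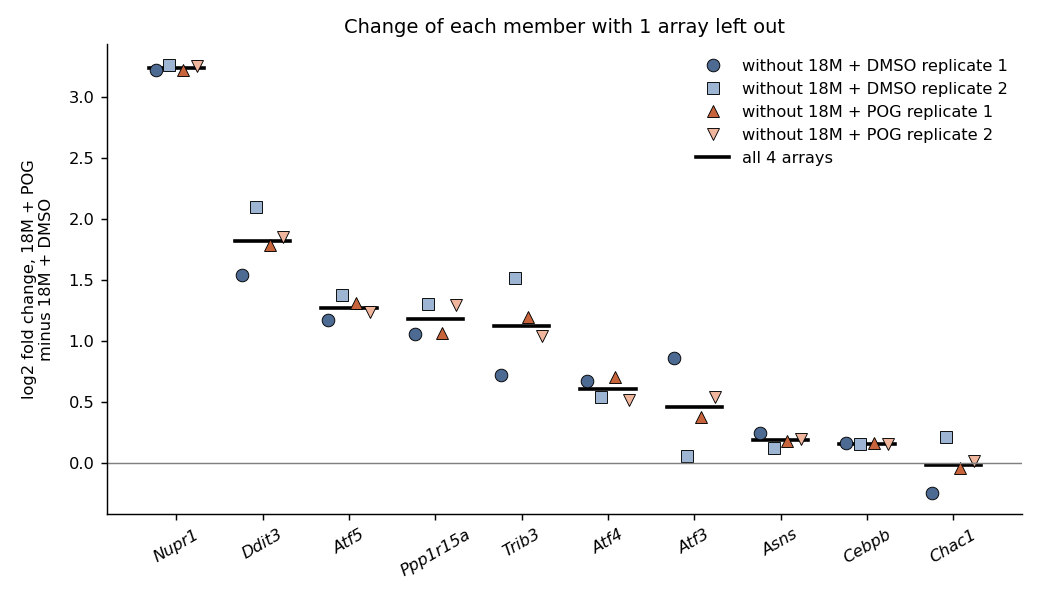
Log2 fold change of each member, 18M + POG minus 18M + DMSO, with all 4 arrays (black bars) and with each array left out in turn (symbols). Nupr1 stays between 3.22 and 3.26, while Trib3 runs from 0.72 to 1.52 and Atf3 from 0.06 to 0.86.

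The spread between the DMSO arrays was uneven over the members. These arrays differed by 0.80 for Atf3 and for Trib3, by 0.56 for Ddit3 and by 0.46 for Chac1, against a median absolute difference of 0.19 over all named genes. DMSO replicate 2 was the higher array for Ddit3, Trib3 and Chac1 and the lower one for Atf3. On the POG arrays no member differed by more than 0.23, beside a median of 0.21 over all named genes. Atf3, Cebpb and Trib3 had mean signals within the lowest 25% of named genes, and no detection values were used.

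The wider pathway was read from 8 lists of genes with known roles. Together they held 96 measured genes outside the members, of which 25 were higher and 11 were lower, beside the 20.4% and 17.2% of all named genes, and 60 did not pass, with a median log2 difference of 0.155. The counts of each list and marker group below are to be read beside the same shares.

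Stress response targets of ATF4 and CHOP other than the members were the list with most higher genes. The list follows known roles and was chosen with earlier results of these data known. Whether ATF4 or CHOP set the levels of its genes here was not tested. Of 13 measured, 9 were higher and 0 were lower (limma without adjustment gave 10 and 0, the methods' t-test 6 and 0), and the median log2 difference was 1.02. With any 1 array left out, 6 to 7 were higher. Ddit4, whose product REDD1 restrains mTORC1, had signals of 5.38 and 5.89 with DMSO and 8.22 and 8.49 with POG, a log2 fold change of 2.72 (limma adjusted p = 2.8e-07). Vldlr, a lipoprotein receptor gene, rose from 11.49 and 11.68 to 13.16 and 13.02, a log2 fold change of 1.51. These genes rose on both POG arrays with no overlap. The autophagy genes Gabarapl1 and Sqstm1, the latter encoding the cargo receptor p62, rose by 1.49 (limma adjusted p = 3.5e-05) and by 1.43 (limma adjusted p = 5.6e-05) on the log2 scale. All 4 kept their call with any 1 array left out. Gdf15, a stress cytokine gene, stood near the lowest signals at 3.73 and 3.71 with DMSO and 4.14 and 4.19 with POG and did not pass (limma adjusted p = 0.0806).

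Amino acid genes were called in both directions. Of 9 measured synthesis targets of ATF4, 3 were higher and 3 were lower, with a median log2 difference of -0.31. With 1 array left out, 0 to 1 were higher (0 without DMSO replicate 1) and 2 were lower, and the methods' t-test gave 0 and 2. The higher genes were Cth, Aldh1l2 at 0.695 (limma adjusted p = 0.0273) and Gpt2 at 0.585 (limma adjusted p = 0.0473). The lower genes were Psat1, Phgdh and Pycr1. Aldh18a1, of proline synthesis, and Shmt2, which converts serine to glycine, did not pass at -0.31 and -0.27. Psat1, the phosphoserine aminotransferase gene, fell from 12.18 and 12.02 to 11.09 and 11.06, a log2 fold change of -1.03 (SE 0.19, limma adjusted p = 0.000896), and kept its call with any array left out. Phgdh, which encodes the first enzyme of serine synthesis, had a log2 fold change of -0.98 (limma adjusted p = 0.00519) and lost its call without DMSO replicate 2 or either POG array. Pycr1, of proline synthesis, was at -1.02 (limma adjusted p = 0.00110) and lost its call without DMSO replicate 1 (limma adjusted p = 0.0504). Cth, which makes cysteine from cystathionine, was higher by 1.08 (limma adjusted p = 0.00216), a call lost without DMSO replicate 1 or POG replicate 2. Of 9 amino acid transporter genes, 1 was higher and 1 was lower. The glutamine transporter gene Slc38a1 fell from 13.92 and 13.82 to 12.53 and 12.77, a log2 fold change of -1.22 (limma adjusted p = 0.000250), and the glycine transporter gene Slc6a9 was at 0.73 (limma adjusted p = 0.0134), a call lost with any array left out. The cystine transporter gene Slc7a11, often used as an ATF4 readout, had a log2 difference of -0.12 (limma adjusted p = 0.667). Of 7 aminoacyl-tRNA synthetase genes, 0 were higher and 1 was lower (limma without adjustment gave 1 and 1, the methods' t-test 0 and 0). That gene, Mars1, was at -0.56 (limma adjusted p = 0.0405) and lost its call with any array left out. After subtraction of each array's median the count for the synthetases was 1 higher and 0 lower.

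**Figure D4:**
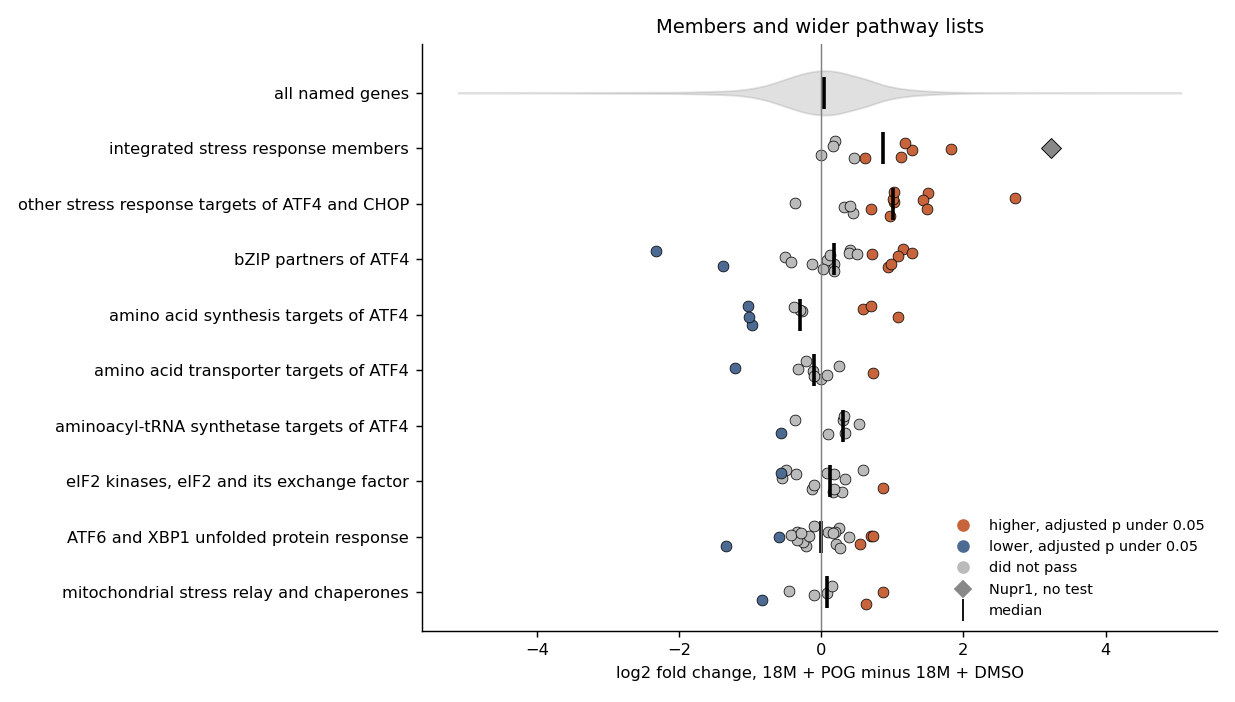
Log2 fold change, 18M + POG minus 18M + DMSO, of every measured gene of the members and of 8 wider lists, with the distribution of all 7235 named genes on top and a black mark for each median. The median is 0.87 for the 10 members with Nupr1, which was chosen for its rise, and 0.61 for the 9 others. It is 1.02 for other stress targets and -0.31 for amino acid synthesis genes, against 0.04 for all named genes. Vertical scatter within a row has no meaning.

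Among the sensors and the translation factor itself, few genes passed the test. Of 14 measured genes of eIF2 kinases, eIF2 and its exchange factor, 1 was higher and 1 was lower. Limma without adjustment gave 2 and 3. Over all named genes, 20.4% were higher and 17.2% lower. Both POG arrays lay above both DMSO arrays in 4 of the 14 genes and below them in 5. These shares were 37.2% and 32.7% over all named genes. Eif2ak3, which encodes the kinase PERK of the endoplasmic reticulum, had signals of 8.84 and 9.05 with DMSO and 9.92 and 9.72 with POG, a log2 fold change of 0.88 (SE 0.20, limma adjusted p = 0.00346), and lost its call without DMSO replicate 1 or POG replicate 1. Eif2s1, the gene of the phosphorylated eIF2 subunit, was at -0.57 (limma adjusted p = 0.0428) and lost its call with any array left out. The kinase gene Eif2ak2 had a log2 difference of 0.08 (limma adjusted p = 0.813), and Eif2ak1 and Eif2ak4 were not analysed here.

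The other branches of the unfolded protein response, run by ATF6 and XBP1, held higher and lower genes. Of 20 measured, 3 were higher and 2 were lower, beside 20.4% and 17.2% of all named genes. The median log2 difference was -0.003. Hspa5, the gene of the chaperone BiP and a common readout of endoplasmic reticulum stress, had signals of 17.10 and 17.33 with DMSO and 16.52 and 16.73 with POG, a log2 fold change of -0.59 (limma adjusted p = 0.0318), a call lost with any array left out. Creld2, another gene induced by endoplasmic reticulum stress, fell from 9.98 and 10.31 to 8.58 and 9.03, a log2 fold change of -1.34 (limma adjusted p = 0.000262), and kept its call. Sel1l and Dnajb9, which serve degradation and folding in the endoplasmic reticulum, were at 0.73 (limma adjusted p = 0.0107) and 0.71 (limma adjusted p = 0.0224). The call of Sel1l was lost with any array left out, and that of Dnajb9 without either DMSO array or POG replicate 2. Xbp1 itself had a log2 difference of -0.26 (limma adjusted p = 0.329).

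Of 7 measured genes of the mitochondrial stress relay and its chaperones, 2 were higher and 1 was lower. Hspa9, a mitochondrial chaperone of the HSP70 family, was at 0.87 (limma adjusted p = 0.00451), the protease gene Lonp1 at 0.63 (limma adjusted p = 0.0208) and the chaperonin gene Hspd1 at -0.84 (limma adjusted p = 0.00455). None of these 3 calls held in all 4 fits with an array left out. Oma1, which starts the relay from mitochondria to eIF2, had a log2 difference of 0.08 (limma adjusted p = 0.816).

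Among 19 measured bZIP genes, whose proteins can pair with ATF4 or its relatives, 6 were higher and 2 were lower. Over all named genes, 20.4% were higher and 17.2% lower. Fosl1, an AP-1 gene, fell from 9.24 and 8.70 to 6.74 and 6.54, a log2 fold change of -2.33 (SE 0.22, limma adjusted p = 1.4e-06). Jun fell from 10.91 and 11.11 to 9.75 and 9.51, a change of -1.38 (limma adjusted p = 9.5e-05), and Maf rose by 1.27 (limma adjusted p = 0.000199). All 3 kept their calls with any array left out. Cebpd, a C/EBP gene related to Cebpb, rose from 7.34 and 6.90 to 8.19 and 8.35, a log2 fold change of 1.15 (limma adjusted p = 0.000693), a call lost without POG replicate 2. Without POG replicate 2, 1 of the 19 was higher.

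Genes with a CARE core in the promoter window did not share a direction. Of 6073 named genes with a window, 125 carried the core, and 25.6% of them were higher and 16% lower, beside 20.4% and 17.2% of all named genes. These 125 include Nupr1, chosen for its rise, and the members Trib3 and Chac1. The shares over all named genes also cover genes without a window. In the wider lists 12 of 85 genes with a window carried it. Herpud1 and Hspa9 were the 2 higher ones, with log2 fold changes of 0.97 and 0.87, and Mars1, Pycr1 and Slc38a1 the 3 lower ones, at -0.56, -1.02 and -1.22.

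The genes whose 4 values lay nearest to those of Nupr1 were not members. Distance was taken over the 4 arrays after centring each gene on its mean, in log2 units. The smooth muscle myosin gene Myh11 was nearest, with a distance of 0.17, followed by the guidance ligand gene Slit3 (0.18), the growth factor binding protein gene Igfbp5 (0.24), the sterol regulator gene Srebf1 (0.27) and the p53-inducible stress gene Tp53inp1 (0.39). Their log2 differences lay between 3.02 and 3.47, so this likeness mostly restates the size of the change over 4 arrays. Of the members, Ddit3 was nearest at 1.46, at rank 83 of 7234 genes, and Chac1 farthest at 3.26, at rank 3873.

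Other gene groups differed between the same arrays. All 17 measured cell division genes were lower, with a median log2 fold change of -3.52, and their summed log2 signal was 199.2 to 200.4 with DMSO and 139.2 to 144.1 with POG. In bulk RNA a smaller share of dividing cells and less of these transcripts per cell cannot be told apart. Of 7 measured pericyte and smooth muscle markers of 9 listed, 4 were higher and 1 was lower, with a summed log2 signal of 86.5 to 87.3 with DMSO and 91.9 to 93.1 with POG. No marker stood at 0, since RMA gives every feature a signal. Of 13 tendon and mesenchymal markers, limma called 5 higher, with Lum at 2.79 and Dcn at 1.18, and 3 lower, with Tnc at -1.63 and Thbs4 at -0.93. Of 5 measured cartilage and bone markers, 3 were higher and 0 were lower (limma without adjustment gave the same counts), with Acan at 1.18. Of 4 adipocyte markers, 2 were higher, Lpl at 1.92 and Adipoq at 1.105, and 1 was lower, Pparg at -0.695. The part of any of these groups in the members' values was not tested.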

How the data were processed

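Log2 RMA signals of 4 Affymetrix Rat Transcriptome Arrays 1.0 (2 of 18M + DMSO, 2 of 18M + POG) were analysed. The authors summarised the scans by robust multichip analysis with default settings and global scaling and deposited log2 values, 1 column per array. The software version and genome build are not given in the sources used here. All 10141 features were identical in a second deposited table. The platform annotation gave 1 gene symbol to 7240 features, several to 0 and none to 2901. Each of the 7235 genes was represented by its feature of highest mean, without a filter. The number of arrays limits the precision.

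The group difference of each gene was tested in limma 3.58.1 under R 4.3.3 (lmFit, eBayes, no covariate), and Benjamini-Hochberg adjustment covered all 7235 genes (threshold 0.05). The fit was checked on simulated arrays. The methods' t-test (unadjusted p under 0.05, over 1.5-fold) was an alternative. Members and lists were chosen with earlier results of these data known. Named were all members, the 4 called genes (or fewer) that moved most in each wider list, the 5 genes nearest to Nupr1, and the markers. Slc7a11, Gdf15, Eif2ak2, Xbp1, Oma1, Herpud1, Map1lc3b, Aldh18a1, Shmt2, Aldh1l2 and Gpt2 were named after their values were seen. Promoter windows came from RefSeq (GRCr8), the motif positions from a text search. Alternatives were the second table, quantile normalization, median subtraction, leaving out the dimmest 25% of genes, averaging the features of a gene, an intensity trend, the replicate number as a block, each array left out and a fold limit of 1.5; testing all features was added after seeing the data. Figures were drawn with matplotlib 3.10.9.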

Additional observations from a re-analysis of the deposited data

How the results depend on the processing

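The counts of calls fell with any 1 array left out, where the lone array was assumed to vary like the others. Named genes called higher fell from 1475 to between 523 and 660, and those called lower from 1248 to between 592 and 619. Wider pathway genes called higher fell from 25 to between 10 and 13, and those called lower from 11 to between 6 and 7. Members other than Nupr1 called higher numbered 3 to 4, against 5. The methods' t-test, unadjusted, gave 786 named genes higher and 784 lower and 14 wider pathway genes higher and 7 lower; after Benjamini-Hochberg adjustment it gave 0 in each of these and 0 members. Chac1, at -0.01, turned to 0.013 with quantile normalization and 0.04 with median subtraction. With 1 array left out it ran from -0.24 to 0.22, the latter without DMSO replicate 2, and was 0.02 without POG replicate 2, never past the threshold. The labels give both groups the numbers 1 and 2, but nothing says that a number marks a shared rat or culture, and same-numbered arrays had deviations correlated at 0.145. With the replicate block, 1599 named genes were higher and 1358 lower, and 5 members were higher and 0 lower. The block changed no call of a member. The dim filter removed Atf3, Cebpb and Trib3. Under the other settings, the counts over all named genes, the members and the wider pathway stayed within 1.5 times their values, and Nupr1 stayed between 3.19 and 3.29. No detection values were used, so a signal close to an array's minimum (3.08 to 3.15) has no order against background.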
